A study of Mus musculus with 12 samples.

Results

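The 10 genes described here encode the co-receptors, adaptors and kinases that carry the signal of Toll-like receptors: Cd14, Ly96, Myd88, Tirap, Ticam1, Ticam2, Irak2, Irak3, Irak4 and Traf6. They were chosen by symbol, 1 row for each among the 47729 genes of the count table, and all 10 were among the 15232 genes that passed the filter on low counts. They were followed in cultured peritoneal macrophages of C57BL/6 mice in 4 groups of 3 libraries. TG untreated and TG SPARC cells came from mice injected once with 3% thioglycollate, an irritant that draws inflammatory cells into the peritoneal cavity, 4 days before the cells were collected. IL4 untreated and IL4 SPARC cells came from mice injected 2 times with IL-4 complex, which is 5 ug of IL-4 bound to 25 ug of an antibody that prolongs its action, with collection 2 days after the last injection. In both, cells that adhered to the plate within 2 h were kept for 24 h, either untreated or with SPARC, a secreted matricellular glycoprotein, at 20 ug/ml. No control protein is named for the treatment, and the labels do not say whether replicates came from separate mice, so p-values measure only the spread between these libraries.

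As background, Toll-like receptors recognise microbial products and assemble a signalling complex through TIR domains. CD14 hands lipopolysaccharide to the pair of TLR4 and MD-2, the product of Ly96. At the plasma membrane TIRAP brings in MYD88, which recruits IRAK4, then IRAK2 or IRAK1, and passes the signal to the ubiquitin ligase TRAF6 and on to NF-kB. From endosomes TICAM2 (TRAM) brings in TICAM1 (TRIF), which activates TBK1 and the interferon genes. IRAK3 (IRAK-M) is a pseudokinase best known in macrophages as a brake on the MYD88 complex.

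Promoters are shown for the genes whose levels moved with SPARC in IL4 macrophages, the 3 that rose (Myd88, Irak2, Irak3) and the 1 that fell (Irak4). Each is the 250 bases before a RefSeq transcription start on GRCm38.p6, printed 5′ to 3′ on the strand of the gene. Irak3 has 2 starts in that table, named a and b. Capitals mark matches to the motif of NF-kB (GGG and CC with 5 free bases between them) or to the interferon-stimulated response element (TTTC and TTTC with 2 free bases between them), searched on both strands.
Myd88 (chr9:119340019-119340268, minus strand): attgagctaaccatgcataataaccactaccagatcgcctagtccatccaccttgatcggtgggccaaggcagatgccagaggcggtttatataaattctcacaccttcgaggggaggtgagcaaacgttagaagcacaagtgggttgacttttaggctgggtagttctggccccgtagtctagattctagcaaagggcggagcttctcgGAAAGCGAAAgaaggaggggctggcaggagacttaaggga
Irak2 (chr6:113638217-113638466, plus strand): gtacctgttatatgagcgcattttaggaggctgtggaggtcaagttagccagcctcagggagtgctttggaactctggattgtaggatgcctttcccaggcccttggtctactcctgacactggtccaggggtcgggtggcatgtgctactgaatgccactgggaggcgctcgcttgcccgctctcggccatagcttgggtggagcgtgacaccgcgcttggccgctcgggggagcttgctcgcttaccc
Irak3 start a (chr10:120201598-120201847, minus strand): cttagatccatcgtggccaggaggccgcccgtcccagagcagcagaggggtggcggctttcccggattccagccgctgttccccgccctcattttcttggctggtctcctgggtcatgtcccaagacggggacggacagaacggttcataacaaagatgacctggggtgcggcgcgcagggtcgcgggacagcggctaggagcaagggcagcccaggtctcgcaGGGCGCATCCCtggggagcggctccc
Irak3 start b (chr10:120202131-120202380, minus strand): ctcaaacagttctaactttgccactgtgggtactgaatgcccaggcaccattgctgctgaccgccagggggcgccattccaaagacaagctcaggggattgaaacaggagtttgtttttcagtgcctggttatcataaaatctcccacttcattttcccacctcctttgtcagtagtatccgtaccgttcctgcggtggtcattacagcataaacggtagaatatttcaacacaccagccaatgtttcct
Irak4 (chr15:94543410-94543659, plus strand): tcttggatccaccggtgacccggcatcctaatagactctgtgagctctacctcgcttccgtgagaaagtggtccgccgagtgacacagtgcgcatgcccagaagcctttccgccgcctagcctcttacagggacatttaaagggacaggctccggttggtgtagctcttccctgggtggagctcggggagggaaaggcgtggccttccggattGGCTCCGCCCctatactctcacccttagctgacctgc

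The Myd88 window held 1 match to the interferon-stimulated response element, GAAAGCGAAA on the opposite strand, whose first base lay 40 bases before the start. This motif was found in 2.98% of the 32851 promoters of the same length in the table. The Irak3 window at start a held 2 overlapping NF-kB matches on opposite strands, beginning 26 and 25 bases before the start, and the Irak4 window held 1, beginning 37 bases before it. The NF-kB motif is loose and was found in 45.8% of all promoters. No letters matching these motifs, or the AP-1 motifs TGAGTCA and TGACTCA, were found in the windows of Irak2 and of Irak3 at start b. Of the 10 genes, 7 were searched: Ly96 had no promoter in the table, and Cd14 and Ticam2, on chromosome 18, were left out. Among the 7, 5 had an NF-kB match, 1 the interferon element and 0 an AP-1 match, which 4.46% of all promoters held. These counts are of genes, while the shares are of promoters. The 7 genes had 9 windows, since Tirap and Irak3 had more than 1. The Myd88 window and the Irak3 window at start a lie inside the spans that GENCODE gives these genes, which begin further upstream. The last bases of the Irak4 window also lie inside the span of that gene.

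Libraries held 31501941 to 42288785 estimated gene counts. Levels are CPM, counts relative to the library size after TMM scaling in edgeR, and are given for replicates 1, 2 and 3 in that order. Levels of different genes are compared as the deposited FPKM values, which are per length. Fold changes are log2 values ± SE from edgeR's quasi-likelihood test on all 12 libraries, with Benjamini-Hochberg adjustment over all genes tested. A gene is said to have risen or fallen where its adjusted p was under 0.05. The 7 macrophage markers Adgre1, Csf1r, Cd68, Itgam, Lyz2, Fcgr1 and Mertk summed to between 12655 and 34601 CPM. Lyz2 alone held 27859 CPM of the highest sum, in TG untreated replicate 1. Fcgr1 was low in IL4 untreated cells, at 5.84 CPM in replicate 1. With SPARC in IL4 cells, Lyz2 and Mertk fell (−1.28 ± 0.34 and −1.61 ± 0.18, adjusted p = 0.0206 and 0.000253, edgeR). Fcgr1 rose there by 4.26 ± 0.48 (adjusted p = 0.000301), and Adgre1, Csf1r, Cd68 and Itgam did not pass. None of the 7 passed with SPARC in TG cells. The TG libraries numbered 1 stood apart. The 10 B cell markers summed to 2250 CPM in TG untreated replicate 1 and to 1767 CPM in TG SPARC replicate 1, while the other 4 TG libraries had 85.5 to 182 CPM and the IL4 libraries 56.3 to 342 CPM. Replicates of the same number in the same injection deviated alike from their group means, so values are also given from a fit with the number as a block where that changes a call.

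Measured per length, Cd14 was the most abundant of the 10 genes in every group, at 121 ± 93.5 FPKM in TG untreated, 209 ± 52.3 in TG SPARC, 145 ± 56.3 in IL4 untreated and 165 ± 15.4 in IL4 SPARC cells (mean ± SD, n = 3). Ly96 came next in both untreated groups, at 44.0 ± 4.09 FPKM in TG and 52.2 ± 3.41 FPKM in IL4 cells. In both SPARC groups the second place was that of Irak3, at 52.3 ± 16.6 FPKM in TG and 61.3 ± 3.29 FPKM in IL4 cells. In the untreated groups Irak3 was seventh, at 23.2 ± 12.3 FPKM in TG and 19.2 ± 3.22 FPKM in IL4 cells. Ticam1, Traf6 and Tirap held the last 3 places in every group, between 7.28 and 12.1 FPKM. Neighbours in these orders often overlapped: in TG SPARC cells the libraries of Irak3 overlapped those of Myd88, and those of Myd88 overlapped those of Irak2. In IL4 SPARC cells Irak3 lay above Ticam2 in each library, while Ticam2, Myd88 and Irak2 each overlapped the next. Cd14 did not overlap the gene below it in any group.

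**Figure D1:**
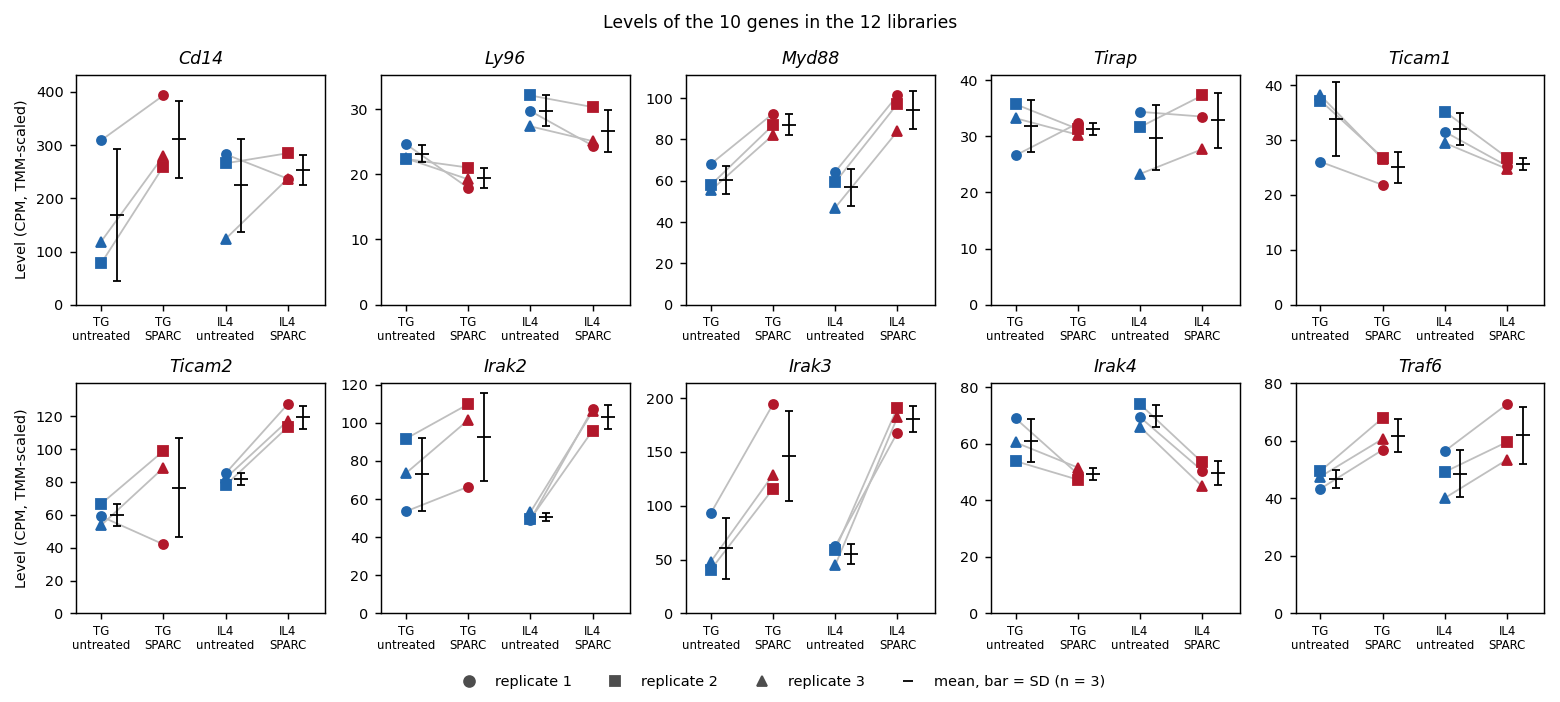
Levels of the 10 genes in CPM (vertical axis, linear, from 0) in each of the 12 libraries; grey lines join replicates of the same number, and black bars give the mean ± SD of 3 libraries. Irak3 and Myd88 are higher with SPARC in all 6 joined pairs, Irak4 is lower in all 6, and Ticam2 goes down in TG replicate 1 and up in the other 5.

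The question put to both kinds of macrophage is how they respond to SPARC. Irak3, the pseudokinase, had the largest fold change among the 10 genes in both. In TG untreated cells it stood at 93.1, 40.7 and 48.1 CPM and in TG SPARC cells at 194, 116 and 129 CPM. In IL4 untreated cells it stood at 62.4, 59.0 and 44.8 CPM and in IL4 SPARC cells at 168, 191 and 182 CPM. Replicate 1 was the highest of its group in TG cells with and without SPARC, and treated and untreated libraries did not overlap in either injection. Irak3 rose by 1.27 ± 0.30 in TG cells (adjusted p = 0.0265, edgeR) and by 1.70 ± 0.31 in IL4 cells (adjusted p = 0.00327), or 2.41-fold and 3.26-fold. Leaving out replicate 2 or 3 of TG untreated, or replicate 1 of TG SPARC, ended the TG call (adjusted p from 0.0533 to 0.0880). Of the exonic bases of Irak3, 5.22% are shared with Tmbim4 on the opposite strand, and the strand setting of the counting is not given in the sources used here. Tmbim4 rose too, by 0.56 ± 0.12 and 0.87 ± 0.12, from means of 42.7 and 36.5 CPM.

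Irak2, the kinase-like partner that sustains the signal to TRAF6, was found at 53.6, 91.7 and 73.6 CPM in TG untreated and at 66.5, 110 and 101 CPM in TG SPARC cells. These groups overlapped, although each numbered pair was higher with SPARC. In IL4 cells it went from 49.1, 49.5 and 53.1 CPM to 107, 95.9 and 106 CPM, with a wide gap between treated and untreated libraries. Irak2 rose by 1.03 ± 0.21 in IL4 cells (adjusted p = 0.00578, edgeR), or 2.04-fold. In TG cells its value was 0.34 ± 0.21 (adjusted p = 0.330), with a 95% interval from −0.12 to 0.81. It ranged from 0.17 without TG untreated replicate 1 to 0.58 without TG untreated replicate 2, and passed with no single library left out. With the replicate block the TG value was 0.35 ± 0.06 (adjusted p = 0.00815). Without both IL4 libraries numbered 3, the IL4 value was 1.06 (adjusted p = 0.0538).

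Irak4, the kinase that starts the cascade at MYD88, moved the other way. It went from 69.5, 74.1 and 66.1 CPM to 50.5, 53.5 and 45.0 CPM in IL4 cells, and fell by 0.49 ± 0.10 on the log2 scale (adjusted p = 0.00545, edgeR). In TG cells it went from 69.0, 53.9 and 60.5 CPM to 49.4, 47.4 and 51.7 CPM. Treated and untreated libraries did not overlap in either injection. The TG value was −0.31 ± 0.10 (adjusted p = 0.0778), and −0.30 ± 0.07 with the replicate block (adjusted p = 0.0198). Of the exonic bases of Irak4, 7.87% are shared with Twf1 on the opposite strand, whose own values were 0.04 ± 0.15 in TG and −0.41 ± 0.15 in IL4 cells (adjusted p = 0.891 and 0.0642). Irak1, a kinase of the same family that is not among the 10, stood at −0.17 ± 0.07 in TG cells (adjusted p = 0.156) and −0.07 ± 0.07 in IL4 cells (adjusted p = 0.481).

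Traf6, the ubiquitin ligase below the kinases, was higher with SPARC in each of the 6 numbered pairs, by 0.28 to 0.46. It stood at 43.4, 49.6 and 47.6 CPM in TG untreated and at 56.9, 68.0 and 60.7 CPM in TG SPARC cells, without overlap. In IL4 cells the groups overlapped, at 56.5, 49.2 and 40.2 CPM without and 72.8, 59.7 and 53.5 CPM with SPARC. Its values were 0.40 ± 0.14 in TG (adjusted p = 0.102, edgeR) and 0.35 ± 0.14 in IL4 cells (adjusted p = 0.0953). With the replicate block they were 0.40 ± 0.06 and 0.35 ± 0.06 (adjusted p = 0.00267 and 0.00220).

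Among the adaptors, Myd88 rose in both kinds of macrophage. It stood at 68.1, 57.9 and 55.3 CPM in TG untreated and at 92.5, 86.9 and 82.1 CPM in TG SPARC cells. In IL4 cells it went from 64.3, 59.3 and 47.0 CPM to 101, 97.2 and 83.9 CPM. Every treated library lay above every untreated one within an injection. The rise was 0.53 ± 0.13 in TG (adjusted p = 0.0271, edgeR) and 0.73 ± 0.13 in IL4 cells (adjusted p = 0.00279), or 1.44-fold and 1.66-fold. Leaving out replicate 2 or 3 of TG untreated, or replicate 1 or 2 of TG SPARC, ended the TG call (adjusted p from 0.0508 to 0.0830), as did scaling by total counts (adjusted p = 0.0621). Of the exonic bases of Myd88, 11.3% are shared with Acaa1a on the opposite strand, whose values were 0.32 ± 0.11 in TG and 0.49 ± 0.11 in IL4 cells (adjusted p = 0.0935 and 0.00866). Reads of such overlapping genes may have been counted for either.

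Ticam1, the adaptor of the TRIF arm, was lower with SPARC in each of the 6 numbered pairs, by 0.25 to 0.52. Its values were −0.43 ± 0.14 in TG (adjusted p = 0.0849, edgeR) and −0.32 ± 0.14 in IL4 cells (adjusted p = 0.122). With the replicate block they were −0.42 ± 0.07 and −0.32 ± 0.07 (adjusted p = 0.00629 and 0.0101). The TG libraries stood at 26.0, 37.2 and 38.1 CPM without and 21.8, 26.8 and 26.5 CPM with SPARC, and overlapped because of TG untreated replicate 1. Without that library the TG value was −0.59 (adjusted p = 0.0125). In IL4 cells 31.5, 35.2 and 29.4 CPM went to 25.3, 26.8 and 24.7 CPM, without overlap.

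Ticam2, which joins TRIF to TLR4, stood at 59.0, 66.6 and 53.6 CPM in TG untreated and at 42.0, 98.7 and 88.5 CPM in TG SPARC cells. TG SPARC replicate 1 was thus the lowest of the 6, and the only treated library below its untreated partner. The TG value was 0.36 ± 0.25 (adjusted p = 0.409, edgeR), 0.69 without that library (adjusted p = 0.00625) and 0.15 without TG SPARC replicate 2 (adjusted p = 0.810). In IL4 cells Ticam2 went from 85.2, 78.0 and 82.2 CPM to 127, 113 and 117 CPM without overlap, a value of 0.54 ± 0.25 (adjusted p = 0.131). That value was 0.55 (adjusted p = 0.00261) once TG SPARC replicate 1, which shares the estimate of the spread, was left out. Ticam2 shares 14.5% of its exonic bases with Tmed7 on the same strand, so the split of reads between them is uncertain. Tmed7 stood at 0.14 ± 0.09 and 0.11 ± 0.09 (adjusted p = 0.330 and 0.386).

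Tirap, the bridge from the receptor to MYD88, lay between 23.3 and 37.3 CPM in all 12 libraries. Its values were −0.02 ± 0.16 in TG (95% interval −0.38 to 0.34, adjusted p = 0.948, edgeR) and 0.14 ± 0.16 in IL4 cells (95% interval −0.22 to 0.50, adjusted p = 0.560). Its SPARC and untreated libraries overlapped in both injections.

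Of the co-receptor genes, Cd14 varied most between replicates. It stood at 309, 77.7 and 119 CPM in TG untreated and at 393, 260 and 280 CPM in TG SPARC cells. In IL4 cells it stood at 283, 266 and 124 CPM without and 237, 285 and 237 CPM with SPARC. TG untreated replicate 1 lay within the range of the treated libraries, and IL4 untreated replicate 3 lay far below its group. The TG value was 0.88 ± 0.47 (adjusted p = 0.268, edgeR), 1.11 ± 0.32 with the replicate block (adjusted p = 0.0461) and 1.66 without TG untreated replicate 1 (adjusted p = 0.0177). Without TG untreated replicate 2 it was 0.58, and with other single TG libraries left out the adjusted p reached 0.494. In IL4 cells the value was 0.17 ± 0.47 (adjusted p = 0.816), and −0.12 without IL4 untreated replicate 3.

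Other cells carry Cd14 as well, so their markers are given beside it. Of the monocyte markers, Ly6c2 stood at 14.2, 0.991 and 0.499 CPM in TG untreated and at 189, 227 and 197 CPM in TG SPARC libraries, and rose by 5.27 ± 1.26 (adjusted p = 0.0264, edgeR). In IL4 SPARC libraries it reached 0.607 to 9.05 CPM, and at most 0.186 CPM in IL4 untreated ones. Ccr2 fell with SPARC, by 1.60 ± 0.36 in TG and by 1.73 ± 0.39 in IL4 cells (adjusted p = 0.0222 and 0.00939), and Plac8 did not pass in either (adjusted p = 0.812 and 0.843). The 10 neutrophil markers summed to 7.12 to 11.7 CPM in TG untreated and 28.0 to 53.2 CPM in TG SPARC cells. In IL4 cells they summed to 6.96 to 9.85 CPM without and 26.9 to 41.4 CPM with SPARC. Of these 10, S100a8 held nearly all of the sum and rose by 2.07 in both injections (adjusted p = 0.00353 and 0.000965, edgeR). Camp stood at 3.46 ± 1.03 in TG cells (adjusted p = 0.0579) and rose by 4.42 ± 1.02 in IL4 cells (adjusted p = 0.0103). The other 8 were too low to be tested, among them Ly6g and S100a9, with at most 1 and 3 counts in any library. Marker sums of mesothelial cells and fibroblasts were 2.40, 53.6 and 47.7 CPM in TG untreated and 17.9, 102 and 123 CPM in TG SPARC cells. They were at most 3.83 CPM in IL4 cells. Col1a1 and Col3a1 held most of the TG sums and did not pass in TG cells (adjusted p = 0.349 and 0.630, edgeR). The mesothelial marker Wt1 stood at 0.141, 3.42 and 3.10 CPM in TG untreated and at 0.122, 1.03 and 1.12 CPM in TG SPARC libraries. Msln, Upk3b and Krt19 were also lower with SPARC in TG replicates 2 and 3. The 5 dendritic cell markers summed to 45.1, 10.5 and 13.4 CPM in TG untreated and 78.9, 15.8 and 17.8 CPM in TG SPARC cells. In IL4 cells they summed to 35.2, 40.9 and 13.3 CPM without and 11.4, 17.4 and 7.85 CPM with SPARC. Cd209a fell by 7.14 ± 1.40 in TG, to at most 0.0287 CPM, and by 6.21 ± 0.98 in IL4 cells (adjusted p = 0.0125 and 0.00166, edgeR). Flt3, Zbtb46 and Ccr7 did not pass in either, and Xcr1 was not tested. The part of these cell types in the values of Cd14 was not tested. In such bulk samples fewer cells of a type and less RNA per cell cannot be told apart.

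Ly96 was lower with SPARC in each of the 6 numbered pairs, by 0.08 to 0.46, and did not pass. It stood at 24.6, 22.3 and 22.4 CPM in TG untreated and 17.9, 21.0 and 19.2 CPM in TG SPARC cells, without overlap. Its values were −0.25 ± 0.10 in TG (adjusted p = 0.149, edgeR) and −0.16 ± 0.10 in IL4 cells (adjusted p = 0.286). With single libraries left out they ranged from −0.31 to −0.16, the latter without TG SPARC replicate 1, and from −0.26 to −0.086, without IL4 SPARC replicates 2 and 1. Tlr4, the receptor that Ly96 completes, stood at −0.06 ± 0.12 and −0.15 ± 0.12 (adjusted p = 0.814 and 0.377). The ratio of Ly96 to Tlr4 in FPKM lay between 0.889 and 1.26 in all 12 libraries.

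**Figure D2:**
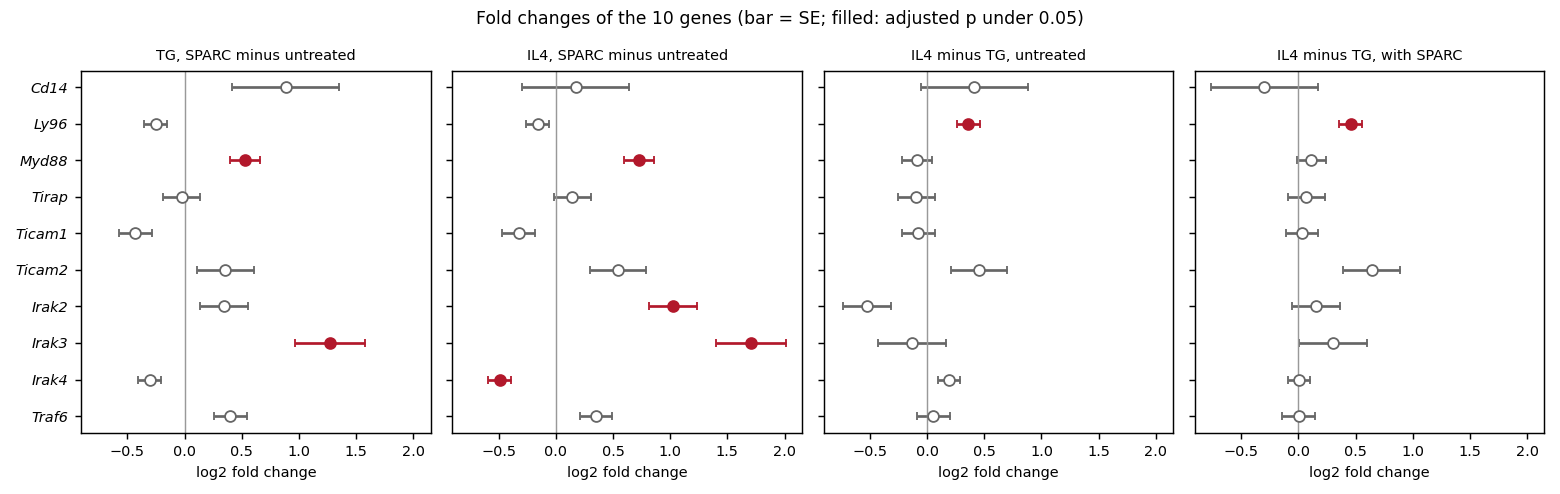
Log2 fold changes (horizontal axis) of the 10 genes in 4 comparisons, with bars of 1 SE; filled points have an adjusted p under 0.05. With SPARC, Myd88 and Irak3 are filled in both injections and Irak2 and Irak4 in IL4 cells, and between injections Ly96 is the filled point in both panels.

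Counted together, 2 of the 10 genes rose and 0 fell with SPARC in TG cells, where 11.3% of all 15232 genes tested were called, 6.73% higher and 4.52% lower. In IL4 cells 3 rose and 1 fell, where 27.8% of all genes were called, 15.1% higher and 12.7% lower. With 10 genes these counts are read as results about single genes and not about the group. The median of the 10 was 0.35 in TG and 0.26 in IL4 cells, against −0.03 and −0.00 over all genes. With the replicate block 5 rose and 2 fell in TG cells (27.3% of all genes called, 14.3% higher and 13.1% lower), and 4 rose and 2 fell in IL4 cells (45.2% called, 22.8% higher and 22.4% lower). Treated and untreated libraries did not overlap for 5 of the 10 in TG cells, against 30.4% of all genes, and for 6 in IL4 cells, against 50.4%. In all 6 numbered pairs 7 of the 10 moved 1 way, Myd88, Irak2, Irak3 and Traf6 upward and Ly96, Ticam1 and Irak4 downward, against 42.7% of all genes.

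Ratios of 2 genes within a library do not depend on how libraries are scaled. The ratio of Irak3 to Irak4 in FPKM, the brake against the first kinase, was 1.26, 0.710 and 0.727 in TG untreated and 3.62, 2.22 and 2.24 in TG SPARC cells. In IL4 cells it was 0.841, 0.736 and 0.641 without and 2.94, 3.17 and 3.57 with SPARC. Irak3 was thus below Irak4 in 5 of the 6 untreated libraries and above it in each treated one. The ratio of Myd88 to Ticam1, the adaptors of the 2 arms, was 4.01, 2.39 and 2.23 in TG untreated and 6.52, 4.99 and 4.76 in TG SPARC cells. In IL4 cells it was 3.14, 2.60 and 2.45 without and 6.17, 5.59 and 5.23 with SPARC. Neither ratio overlapped between treated and untreated libraries. This was fixed by the genes themselves. In FPKM, Irak3 and Myd88 lay wholly higher and Irak4 and Ticam1 wholly lower with SPARC in both injections. The separation of these ratios is thus no further evidence. The ratio of Irak2 to Irak4 overlapped in TG cells, with means of 1.53 ± 0.61 and 2.19 ± 0.54, and not in IL4 cells, with 0.903 ± 0.123 and 2.50 ± 0.27. That of Ticam2 to Ticam1 had means of 2.35 ± 0.56 and 3.86 ± 1.21 in TG cells, where it overlapped, and of 3.32 ± 0.40 and 6.03 ± 0.52 in IL4 cells, where it did not. Myd88 also rose against Tirap, an adaptor of its own arm, without overlap in either injection. That ratio had means of 3.91 ± 1.20 and 5.66 ± 0.28 in TG and of 4.03 ± 0.30 and 6.25 ± 0.51 in IL4 cells. The ratio of Cd14 to Ly96 overlapped in both injections.

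**Figure D3:**
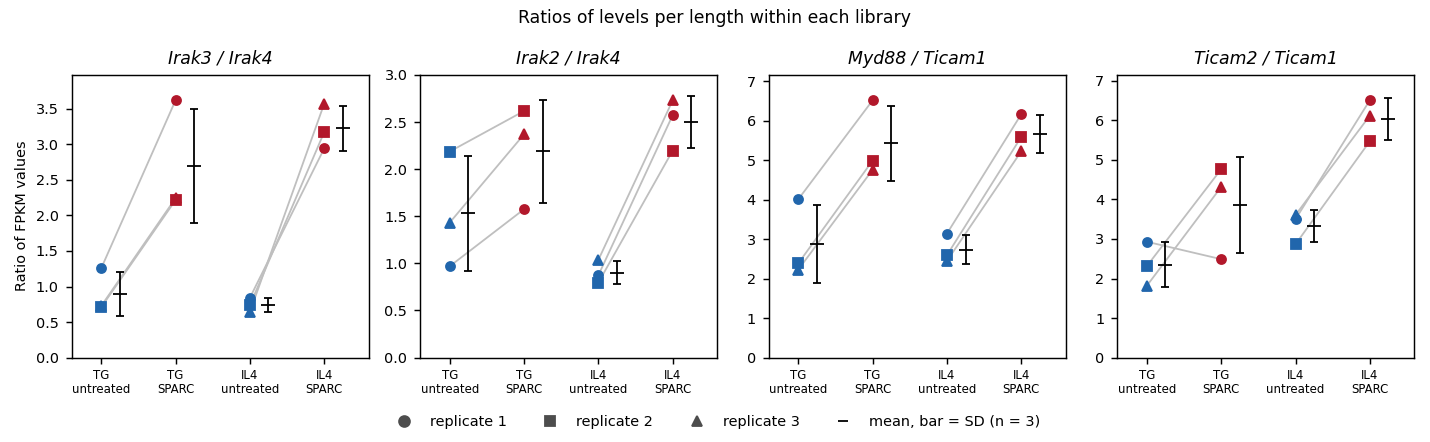
Ratios of FPKM values of 2 genes within each library (vertical axis, linear, from 0); grey lines join replicates of the same number, and black bars give the mean ± SD of 3 libraries. Irak3 / Irak4 and Myd88 / Ticam1 are higher in every SPARC library than in every untreated library of the same injection, while Ticam2 / Ticam1 falls in TG replicate 1. The separation of Irak3 / Irak4 and Myd88 / Ticam1 was fixed by the genes, which lay apart in opposite directions in FPKM.

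The comparison of injections sets IL4 against TG cells, untreated or both with SPARC. The injections differed in agent, in number, in days to collection and in markers of other cells. These cannot be told apart from the state of the macrophages. Ly96 was higher in IL4 than in TG cells, at 29.7, 32.1 and 27.3 CPM against 24.6, 22.3 and 22.4 CPM untreated, and at 24.4, 30.3 and 25.1 CPM against 17.9, 21.0 and 19.2 CPM with SPARC. The groups did not overlap in either comparison. The differences were 0.36 ± 0.10 (adjusted p = 0.0343, edgeR) and 0.46 ± 0.10 (adjusted p = 0.0130). It was the only one of the 10 called in each, where 21% of all genes were called in both comparisons (10.2% higher in IL4 untreated and 10.9% higher in IL4 SPARC cells). Groups did not overlap for 3 of the 10 untreated, against 39% of all genes, and for 2 of the 10 with SPARC, against 41.4%. Leaving out replicate 2 or 3 of TG untreated, or 1 or 2 of IL4 untreated, ended the untreated call (adjusted p from 0.0899 to 0.125), as did scaling by total counts (0.25, adjusted p = 0.104), which moves the median of all genes from −0.05 to −0.16.

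Irak2 differed in the other direction in untreated cells, at −0.53 ± 0.21 for IL4 minus TG (adjusted p = 0.0965, edgeR), without overlap. With scaling by total counts this value was −0.63 (adjusted p = 0.0360), and without TG untreated replicate 1 it was −0.70 (adjusted p = 0.0280). Without TG untreated replicate 2 it was −0.30 (adjusted p = 0.431), and without both IL4 libraries numbered 3 −0.55 (adjusted p = 0.231). With the number as a block shared by both injections it was −0.50 (adjusted p = 0.0755). With SPARC the injections stood at 0.15 ± 0.21 (adjusted p = 0.630). Ticam2 stood at 0.45 ± 0.25 untreated and 0.64 ± 0.25 with SPARC (adjusted p = 0.218 and 0.0919), and without TG SPARC replicate 1 at 0.48 and 0.34 (adjusted p = 0.00825 and 0.0469). Cd14 stood at 0.41 ± 0.47 untreated (adjusted p = 0.567), and at 1.20 without TG untreated replicate 1 (adjusted p = 0.0309). Irak4 stood at 0.19 ± 0.10 untreated (adjusted p = 0.194), and at 0.30 without that same library (adjusted p = 0.0462). The other 5 genes lay between −0.13 and 0.05 untreated and between 0.00 and 0.30 with SPARC.

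The difference of the SPARC responses, IL4 minus TG, was tested for each gene. None of the 10 passed in edgeR, and 0 of all 15232 genes did, although 10.6% had an unadjusted p under 0.05. DESeq2 called 322 of 26086 genes and 0 of the 10. In the blocked fit edgeR called 3.1% of all genes and 1 of the 10, Irak2. The largest difference relative to its error was that of Irak2, at 0.68 ± 0.29 (unadjusted p = 0.0421, adjusted p = 0.449), with a 95% interval from 0.03 to 1.34. For Irak3 the interval ran from −0.51 to 1.38 and for Myd88 from −0.20 to 0.60. The interval of Cd14 was the widest of the 10, from −2.18 to 0.77, and that of Ticam2 ran from −0.59 to 0.97.

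The patterns of 4 genes, whose group means spanned over 1 on the log2 scale, were compared with those of 8607 genes of at least 10 CPM. Likeness was the root mean square difference of log2 CPM over the 12 libraries after centring each gene. Nearest to Irak3 were Ift57, at 0.20, and Adora2a, an adenosine receptor gene, at 0.20. Nearest to Irak2 were Clcn7, a lysosomal chloride transporter gene, at 0.15, and Klc2, a kinesin light chain gene, at 0.15. Nearest to Ticam2 were Sil1 and Pla2g12a, at 0.19 and 0.22, and to Cd14 Hif1a and Gbgt1, at 0.28 and 0.28. No test was made of these likenesses.

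Around the 10 genes, the rest of the pathway was followed in 7 lists. Beside all their counts stand the shares of all genes tested. With SPARC 6.73% rose and 4.52% fell in TG cells, and 15.1% rose and 12.7% fell in IL4 cells. Of 12 Toll-like receptor genes, 2 rose in TG and 2 rose and 2 fell in IL4 cells with SPARC, with medians of 0.01 and −0.01. Tlr3, a receptor for double-stranded RNA that signals through TICAM1, rose by 0.88 ± 0.20 and 1.17 ± 0.20 (adjusted p = 0.0206 and 0.00229, edgeR). Tlr2, which uses TIRAP and MYD88, rose by 2.20 ± 0.57 and 1.93 ± 0.56 (adjusted p = 0.0347 and 0.0285). Tlr8 fell by 1.06 ± 0.21 in IL4 cells. Tlr5 was also called lower there, but it had 14, 17 and 5 counts without and 1 count in each library with SPARC. Of 9 accessory and trafficking genes 1 rose in TG and 3 in IL4 cells, with medians of 0.14 and 0.30. The receptor chaperone gene Hsp90b1 rose by 0.63 ± 0.14 and 0.48 ± 0.14, Scimp by 3.62 ± 0.73 in IL4 cells from 0.33 ± 0.11 CPM, and Pik3ap1 by 0.54 ± 0.14 there.

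Of 18 downstream kinases and ubiquitin enzymes, 3 rose and 1 fell in TG and 5 rose and 2 fell in IL4 cells, with medians of −0.05 and 0.06. Those named include genes that act below TICAM1: Tbk1, the kinase of the interferon branch, rose by 0.46 ± 0.08 and 0.79 ± 0.08, and its partner Tank by 0.57 ± 0.13 and 1.23 ± 0.13. Traf3 rose by 0.60 ± 0.14 and 1.11 ± 0.15, and Map3k8, a kinase that acts below TRAF6, fell by 0.47 ± 0.09 and 0.34 ± 0.09. Of 15 inhibitor genes 14 were tested, of which 6 rose in TG and 7 rose and 2 fell in IL4 cells, with medians of 0.44 and 0.78. Tnfaip3, which removes ubiquitin from TRAF6 and other proteins, rose by 1.01 ± 0.20 and 1.91 ± 0.20, and its partner Tnip1 by 0.81 ± 0.17 and 1.94 ± 0.17. Socs1 rose by 3.78 ± 0.39 and 3.13 ± 0.40, Trim30a by 1.51 ± 0.19 and 1.88 ± 0.19, and Nod2 by 1.40 ± 0.26 and 1.12 ± 0.26.

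Of 6 receptors of the IL-1 family, which use MYD88 and the IRAK kinases too, 1 rose in TG and 3 in IL4 cells, with medians of 0.76 and 0.97. Il1rl2 rose by 2.31 ± 0.48 and 2.86 ± 0.49. In IL4 cells Il1rap, the shared co-receptor, rose by 1.09 ± 0.15, and Il1r1 by 4.68 ± 0.86 from 0.52 ± 0.23 CPM. Of 10 targets of the MYD88 arm 3 rose in each, with medians of 1.70 and 2.02: Tnf and Ptgs2 in both, Il1b in TG and Il12b in IL4 cells. In the blocked fit 5 rose in TG and 6 in IL4 cells, where 14.3% and 22.8% of all genes were called higher. Of 10 targets of the TRIF arm, which interferon receptors also induce, all 9 tested rose in both, with medians of 4.38 and 6.11. The remaining gene, Ifnb1, had at most 1 count in any library. These lists were drawn up with earlier results of these data known, and their counts describe them only.

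Calls of the named pathway genes in TG cells were lost when single libraries were left out, for Tlr2, Tlr3, Hsp90b1, Tank, Traf3, Map3k8, Tnf, Il1b and Ptgs2 (adjusted p from 0.0501 to 0.114). TG untreated replicate 3 was among those libraries for each except Map3k8, which lost its call without TG SPARC replicate 1 or 3. For Tlr2, Tlr3, Tnf, Il1b and Ptgs2 TG untreated replicate 2 was too. TG SPARC replicate 1 was for Tlr2, Il1b and Ptgs2, and TG SPARC replicate 3 for Tlr2, Tnf and Ptgs2. TG SPARC replicate 2 was for Tnf and Ptgs2, and TG untreated replicate 1 for Ptgs2. For Tlr2, Il1b and Ptgs2 the same held for some IL4 libraries, which share the estimate of the spread. In IL4 cells Hsp90b1, Map3k8, Pik3ap1, Ptgs2, Tlr2 and Tlr5 lost their calls without 1 or more IL4 libraries (adjusted p from 0.0530 to 0.111). Each of the 6 IL4 libraries was among these for Hsp90b1, Map3k8, Tlr2 or Tlr5.

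**Figure D4:**
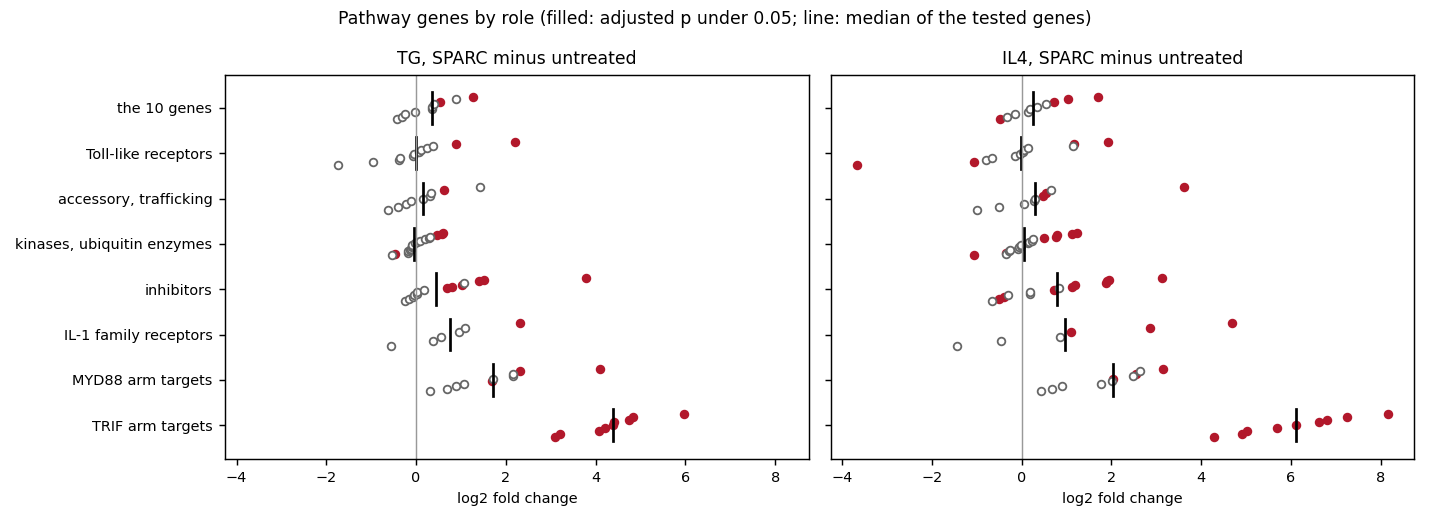
Log2 fold changes with SPARC (horizontal axis) of the tested genes of each list, by role (vertical axis), in TG (left) and IL4 cells (right); filled points have an adjusted p under 0.05 and black lines are medians. All 9 tested targets of the TRIF arm are filled in both panels. Of the 10 genes, 2 (left) and 4 (right) are filled, where 11.3% and 27.8% of all genes tested were called. The lists were drawn up with earlier results of these data known, so their counts are descriptive only. The lowest point on the right is Tlr5, which rests on 1 count in each SPARC library.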

How the data were processed

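Gene expression was measured by polyA RNA sequencing in 12 libraries. The authors deposited expected counts per gene, not scaled, of which 7.97% are not whole, and FPKM values, scaled by the authors to gene length and depth. CASAVA, bcl2fastq 1.8.4, STAR and RSEM were used, per the submitters' processing notes. The build, annotation and strand setting: not given in the sources used here. Counts were rounded and fitted with edgeR 4.0.16 in R 4.3.3 (TMM, filterByExpr with a minimum count of 10, robust quasi-likelihood test, 4 groups, 8 residual degrees of freedom), and the fit was tested on simulated data. The SE is the absolute log2 fold change over the square root of F. Depth makes 3 counts worth 0.0707 to 0.0974 CPM. Alternatives were other scalings, DESeq2 1.42.0, limma 3.58.1 (voom, and log2 FPKM with pseudocounts of 1 and 0.1), other filters, fewer groups, the replicate block and libraries left out.

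Same-numbered libraries of an injection had deviations from their group means that correlated at 0.34 to 0.74 in all 6 pairs. Differently numbered libraries of an injection ranged from −0.66 to 0.51, so some correlated more than some pairs, and same numbers across injections from −0.18 to 0.25. This pairing is read from the data, since the labels share only numbers. For IL4 against TG the block joined the same numbers across injections, whose deviations correlated only weakly. Gene identifiers matched GENCODE M21 (GRCm38) for 98.9% of 47729 without the version and 81.9% with it, and its exons gave the overlaps of genes; promoters are those of RefSeq. The members and lists were chosen with earlier results of these data known. The rule named the 10 genes, Tlr2, Tlr3, Tlr4, Irak1, up to 3 called genes of smallest p per list and SPARC comparison, and the 2 nearest genes in pattern. Traf3, Tnip1, Socs1 and Nod2 are given in both injections although the rule named each in 1. The overlapping neighbours and the pairs of genes in the ratios fall outside the rule. Another monocyte marker, and the sum that holds it, are not reported here.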

Additional observations from a re-analysis of the deposited data

Results flagged for a closer look

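The response of Irak2 to SPARC differed between the injections by 0.68 ± 0.09 (IL4 minus TG, log2 scale) in the fit with the replicate number as a block, where it passed over all genes (adjusted p = 0.0225, edgeR). In that fit 3.1% of all genes were called for this difference. The numbered pairs rose by 0.31, 0.26 and 0.46 in TG cells and by 1.13, 0.95 and 1.00 in IL4 cells, so the pairs do not overlap. Without the block the difference was the same size and did not pass (adjusted p = 0.449). Without both TG libraries numbered 1, which were rich in B cell markers, it was 0.65 (adjusted p = 0.0337), and without both IL4 libraries numbered 3 it was 0.69 (adjusted p = 0.639). With single libraries left out it ranged from 0.46 to 0.86 and did not pass (adjusted p from 0.144 to 0.806).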

How the results depend on the processing

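With the replicate block 7 of the 10 genes were called for SPARC in TG cells, against 2 without it, and 1 for the difference of the responses, against 0. The block changed no other count of the 10 by over 1.5 times. In TG cells with SPARC the count was 0 with the TG groups fitted alone (3.55% of all genes called). It was 0 on log2(FPKM + 1) without a filter (3.83%) and 6 without both TG libraries numbered 1 (14.6%). With single libraries left out it was 0 to 4 (4.68% to 13.4%). In IL4 cells it stayed between 3 and 6 in all alternatives, with 12.9% to 45.2% of all genes called. For IL4 against TG untreated, with 1 called, it was 0 without the low-count filter (8.77%) and 0 on unfiltered FPKM (10.1%). It was 2 with those groups alone (11.4%) and 5 without both TG libraries numbered 1 (38.8%). With single libraries left out it was 0 to 4 (8.75% to 29.3%). For IL4 against TG with SPARC it was 3 without that pair (36.1%) and 1 to 2 with single libraries left out (11.3% to 27.5%). The difference of responses had 1 without that pair (5.41%). Of the 15232 genes, 758 were higher and 938 lower with SPARC in TG cells with total-count scaling, against 1025 and 689. For IL4 against TG untreated total-count scaling gave 1154 higher and 2790 lower, against 1548 and 1649.

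Some values turned sign. With single libraries left out, Tlr4 with SPARC in TG cells ranged from −0.14 to 0.086, turning without TG SPARC replicate 1 or TG untreated replicate 2. Irak3 for IL4 against TG untreated ranged from −0.30 to 0.33, turning without TG untreated replicate 1, and was 0.33 without both TG libraries numbered 1. Its difference of responses ranged from −0.0047 to 0.65, turning without that same library. Without both IL4 libraries numbered 3, Myd88 was at 0.061 and Tirap at 0.074 for IL4 against TG untreated. None of these values passed where they turned. Over all named genes, a further 63 values crossed 0 with a change of less than 1 SE from the main fit. They were called in neither fit and were counted as unchanged. Of 1240 alternative values of the 10 genes, 24 lost a call and 41 gained one. The cause was not tested.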
